A study of Mus musculus with 18 samples.

Results

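The 8 genes described here belong to intestinal sugar transport and sugar phosphorylation and are 8 of the 43432 genes in the deposited count tables. They were named one by one, with earlier results of these data known. They are the sugar transporters Slc5a1, Slc2a5, Slc2a2, Slc2a1 and Slc50a1, and the sugar kinases Khk, Hkdc1 and Hk2. Slc50a1 was selected on its measured values: its CPM (read counts brought to a common library size, with TMM scaling for library composition) lay higher in every knock-out library than in every wild-type library at both times. Its knock-out against wild-type values are therefore given as a description, without a test.

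Each library was made from 5000 to 10000 flow-sorted stem cells of the mouse intestine, which divide in the crypts. The mice were 8 to 16 weeks old and all received tamoxifen, the drug that switches on an inducible gene deletion. There were 4 groups: a Dlg1 conditional knock-out (KO) at 2 days (48 hours) after tamoxifen with 4 libraries, wild type (WT) at 2 days with 4, KO at 14 days with 5, and WT at 14 days with 5. Dlg1 encodes a scaffold protein of cell polarity. The labels name neither the Cre driver nor the deleted exons, and they do not say whether the replicates were separate animals. All p-values below thus reflect the spread among these libraries, some of which may be technical.

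The 2 day libraries held 14.8 to 40.5 M counts (M, mega) and the 14 day libraries 11.1 to 15.7 M. Some libraries stood apart: WT library 1 at 2 days was the deepest of all and had 49.1% of its counts in mitochondrial genes, KO library 5 at 14 days had the lowest total and the most genes detected, 26773, and WT library 3 at 14 days had the highest mitochondrial share of its time, 26.3%, and differed most from the other WT libraries of that time. Dlg1 itself spanned 38.4 to 58.0 CPM in KO and 48.3 to 69.5 CPM in WT at 2 days, and 41.8 to 101 CPM in KO and 60.5 to 85.8 CPM in WT at 14 days. The genotypes overlapped at both times, so the Dlg1 count over the whole gene did not check the genotype labels, which are used as given. The stem cell genes Lgr5 and Olfm4 were present in every group: Olfm4 averaged 2432 ± 223 CPM in KO and 2953 ± 542 CPM in WT at 2 days (SD, n = 4 each), and 847 ± 182 CPM in KO and 825 ± 270.1 CPM in WT at 14 days (SD, n = 5 each). Enterocyte markers were present too, and are given beside the results they move with.

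Dietary sugars cross the absorptive enterocyte in 2 steps, entry at the brush border and exit at the basolateral side. SGLT1, the product of Slc5a1, carries glucose and galactose in with sodium, and GLUT5, the product of Slc2a5, carries fructose. GLUT2, the product of Slc2a2, carries all 3 sugars, mainly out towards the blood. Inside the cell ketohexokinase, the product of Khk, phosphorylates fructose, and hexokinases phosphorylate glucose. Crypt cells carry these functions at lower levels than villus enterocytes, and rely on GLUT1, the product of Slc2a1, and hexokinase 2, the product of Hk2, as many dividing cells do. SWEET1, the product of Slc50a1, is the only mammalian member of the SWEET sugar transporter family.

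The 3 genes whose KO libraries lay above all WT libraries at 2 days were Slc50a1, Slc2a5 and Hkdc1, and the sequence upstream of each is shown because the later results turn on them. The sequences are from RefSeq on GRCm38.p6, 5′ to 3′ on the strand of the gene, and were trimmed where an annotated exon begins. The RefSeq start lies 61 bases inside the GENCODE gene for Slc2a5 and 34 bases inside it for Hkdc1, so distances from the gene coordinates given below are shorter by that much. They span chr3:89270571-89270820 (minus strand) for Slc50a1, chr4:150119094-150119235 (plus strand) for Slc2a5 and chr10:62422492-62422707 (minus strand) for Hkdc1. Capitals mark the GC box GGGCGG, which Sp1-family factors bind, read on either strand.
Slc50a1: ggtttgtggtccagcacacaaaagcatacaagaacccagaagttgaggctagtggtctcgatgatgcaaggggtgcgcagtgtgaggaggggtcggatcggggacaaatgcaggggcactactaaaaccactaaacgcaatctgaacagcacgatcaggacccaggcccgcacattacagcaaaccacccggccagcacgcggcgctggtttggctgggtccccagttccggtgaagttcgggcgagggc
Slc2a5: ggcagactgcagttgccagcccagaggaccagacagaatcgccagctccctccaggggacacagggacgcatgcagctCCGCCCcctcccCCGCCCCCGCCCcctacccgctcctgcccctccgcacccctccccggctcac
Hkdc1: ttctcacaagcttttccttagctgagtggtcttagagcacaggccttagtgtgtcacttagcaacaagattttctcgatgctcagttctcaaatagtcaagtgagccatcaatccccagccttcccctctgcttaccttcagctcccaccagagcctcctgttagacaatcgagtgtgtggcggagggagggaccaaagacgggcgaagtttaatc
The Slc2a5 sequence held 3 GC boxes, starting 172, 160 and 154 bases before the RefSeq start, and was 73.2% G and C. The Slc50a1 and Hkdc1 sequences held none and were 58.4% and 50% G and C. Over 250 bases upstream, 4 of the 8 genes held a GC box (Slc2a1, Slc2a5, Khk and Hk2), against 32.7% of 32851 windows of RefSeq genes. The E-box CACGTG was in 2 of 8 (Slc5a1 and Khk; 6.02% of all windows), GTTAAT of the HNF1 site in Khk (6.43%) and CAAAGT of the HNF4 site in Slc2a2 (12.6%). The TATA box TATAAA (12.4%) and the CDX motif TTTATNG (9.81%) were in none of the 8. Motifs were searched on both strands, no match overlapped another motif, and a match is a description of the letters and not a binding site.

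Slc50a1 (ENSMUSG00000027953, GRCm38 chr3:89268246-89270570, minus strand) was a low-count gene at 2 days and a well-counted one at 14 days. At 2 days it stood at 6.89, 8.60, 7.63 and 7.18 CPM in KO libraries 1 to 4, against 6.59, 5.25, 5.06 and 5.34 CPM in WT libraries 1 to 4. At 14 days it stood at 106, 71.0, 92.5, 80.5 and 68.2 CPM in KO libraries 1 to 5, against 65.3, 65.1, 56.6, 67.7 and 59.8 CPM in WT libraries 1 to 5. The groups did not overlap at either time, by a narrow margin at both: the lowest KO library was at 6.89 CPM and the highest WT library at 6.59 CPM at 2 days, and 68.2 against 67.7 CPM at 14 days. KO over WT gave a log2 fold change of 0.45 ± 0.29 at 2 days and 0.41 ± 0.14 at 14 days (± SE here and below). Of 12480 genes tested at both times, 0.00801% met the same condition, which is Slc50a1 alone, and since the gene was chosen for it nothing is read from that share.

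The Slc50a1 separation at 14 days rests on the scaling, most of all that of KO library 5. Per M of all counts, without TMM, that library was at 42.9, below the 46.9 to 79.7 of the WT libraries. KO library 2, at 79.65, also lay just under WT library 2, at 79.74. With relative log expression factors KO library 5 was at 69.2 CPM against a WT maximum of 68.0 CPM, and with upper-quartile factors at 72.2 against 69.0 CPM. Without any 1 library in turn the log2 fold change stayed between 0.38 and 0.53 at 2 days and between 0.31 and 0.46 at 14 days.

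**Figure D1:**
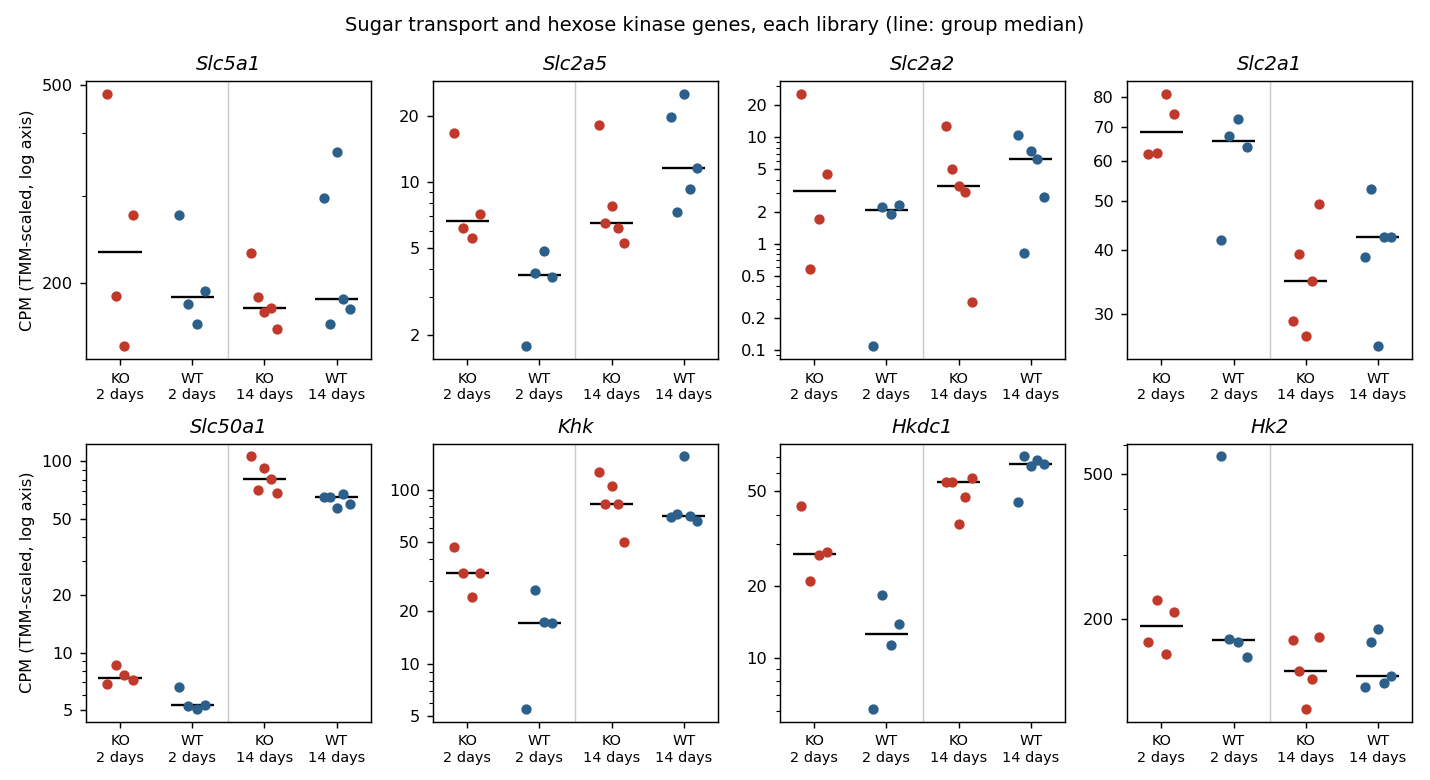
CPM (log axis) of each of the 8 genes in each library, KO in red and WT in blue, at 2 and 14 days, with a line at the group median. Slc50a1, Slc2a5 and Hkdc1 show 4 KO points above all 4 WT points at 2 days, and Slc50a1 alone shows 5 above 5 at 14 days.

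Among the brush-border entry genes, the fructose transporter stood apart at 2 days more than the glucose transporter did. Slc2a5 (chr4:150119283-150144169, plus strand) was at 16.9, 6.18, 5.53 and 7.18 CPM in KO libraries, against 1.77, 3.86, 4.83 and 3.67 CPM in WT libraries. All 4 KO libraries lay above all 4 WT libraries, and KO library 1 lay far above the other KO libraries. The log2 fold change was 1.34 ± 0.46, with an adjusted p of 0.866 in the quasi-likelihood test of edgeR, Benjamini-Hochberg adjusted over 13031 genes (0.0124 before adjustment). A two-sided exact permutation test of Slc2a5 alone gave p = 0.0286, the smallest that 4 against 4 libraries allow. It is 1 of 14 such tests, over 7 genes and both times. Without KO library 1 the log2 fold change was 0.83 ± 0.45, with an edgeR p of 0.0922 before adjustment.

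At 14 days Slc2a5 was at 18.3, 6.48, 7.78, 6.15 and 5.28 CPM in KO libraries, against 19.8, 7.28, 25.4, 9.30 and 11.7 CPM in WT libraries. KO libraries 2 to 5 stood at or under 7.78 CPM, KO library 1 lay among the upper WT libraries, and the groups overlapped. This gave a log2 fold change of -0.73 ± 0.40, with an edgeR adjusted p of 0.957 and an exact permutation p of 0.143 (two-sided), where the smallest possible is 0.00794. Without KO library 1 it was -1.18 and without WT library 3 it was -0.44.

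Slc5a1 (chr5:33104219-33162870, plus strand), the sodium-coupled glucose carrier, had the most counts of the 5 transporter genes in each group. It was at 480.3, 188, 149.6 and 274 CPM in KO libraries at 2 days, against 275, 182, 166 and 193 CPM in WT libraries. At 14 days it was at 229.9, 188, 175, 179 and 162 CPM in KO libraries, against 296, 166, 367, 186 and 178 CPM in WT libraries. The genotypes overlapped at both times. The fold change on the log2 scale was 0.42 ± 0.32 at 2 days and -0.35 ± 0.22 at 14 days, with edgeR adjusted p of 0.866 and 0.957. Without KO library 1, the highest, the 2 day value was -0.01.

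The basolateral genes gave no separation of genotypes. Slc2a2 (chr3:28697903-28731359, plus strand), which encodes the exit transporter GLUT2, was at 25.6, 0.584, 1.71 and 4.54 CPM in KO libraries at 2 days, against 0.109, 2.23, 1.90 and 2.32 CPM in WT libraries. KO library 1 held 525 counts of this gene and WT library 1 held 3, and the other 6 libraries lay between them with overlap. The log2 fold change of 2.32 ± 1.06 had an edgeR adjusted p of 0.866 (0.0488 before adjustment), and it was 0.46 without KO library 1. At 14 days Slc2a2 spanned 0.285 to 12.8 CPM in KO libraries and 0.821 to 10.6 CPM in WT libraries, with a log2 fold change of -0.16 ± 0.70.

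Slc2a1 (chr4:119108711-119137983, plus strand), which encodes the housekeeping glucose transporter GLUT1, was at 62.0, 62.3, 81.4 and 74.3 CPM in KO libraries at 2 days, against 41.9, 67.2, 72.5 and 63.8 CPM in WT libraries. At 14 days it was at 29.0, 39.3, 27.1, 34.8 and 49.4 CPM in KO libraries, against 38.8, 52.8, 25.9, 42.4 and 42.6 CPM in WT libraries. The genotypes overlapped at both times, and the log2 fold changes were 0.19 ± 0.19 and -0.18 ± 0.21. An antisense gene, Gm12868, overlaps 2.99% of the Slc2a1 exons, and the strand setting of the counting is not given in the sources used here. None of the other 7 genes shares exon bases with another annotated gene.

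Among the kinases, Hkdc1 had the smallest p of the 7 genes tested at 2 days. Hkdc1 (chr10:62383137-62422491, minus strand) encodes a hexokinase-family protein of low catalytic activity that is found in intestinal epithelium. It was at 43.5, 21.0, 27.1 and 27.8 CPM in KO libraries, against 6.12, 18.5, 11.4 and 14.0 CPM in WT libraries. All 4 KO libraries lay above all 4 WT libraries. Its log2 fold change was 1.26 ± 0.33, rank 22 of 13031 genes by p, with an edgeR adjusted p of 0.866 (0.00268 before adjustment) and an exact permutation p of 0.0286 (two-sided). Without any 1 library in turn it stayed between 1.01 and 1.51.

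At 14 days Hkdc1 was lower in KO than in WT on average, and the genotypes overlapped. It was at 55.0, 55.0, 36.5, 47.4 and 56.9 CPM in KO libraries, against 45.3, 70.1, 64.2, 67.4 and 65.3 CPM in WT libraries. WT libraries 2 to 5 lay above every KO library, and WT library 1 lay among the KO libraries. That is a log2 fold change of -0.32 ± 0.16, with an edgeR adjusted p of 0.957 (0.0718 before adjustment) and an exact permutation p of 0.103 (two-sided).

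Khk (chr5:30921431-30931248, plus strand), the kinase that commits fructose to breakdown, was at 46.9, 33.3, 24.1 and 33.1 CPM in KO libraries at 2 days, against 5.50, 26.6, 17.4 and 17.2 CPM in WT libraries. KO libraries 1, 2 and 4 lay above every WT library, and the lowest KO library lay under the highest WT library. For Khk the log2 fold change was 1.05 ± 0.39, with an edgeR adjusted p of 0.866 (0.0188 before adjustment) and an exact permutation p of 0.0571 (two-sided). At 14 days Khk was at 127, 82.7, 105, 82.2 and 50.1 CPM in KO libraries, against 69.6, 72.2, 155, 70.2 and 65.8 CPM in WT libraries, with overlap and a log2 fold change of 0.05 ± 0.27. Without WT library 3 that value was 0.37.

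Hk2 (chr6:82725025-82774454, minus strand), the hexokinase typical of proliferating cells, was at 174, 226, 161 and 210.0 CPM in KO libraries at 2 days, against 559, 177, 174 and 157 CPM in WT libraries. WT library 1 stood far above all the others, which overlapped. The log2 fold change was -0.47 ± 0.36, and 0.18 without WT library 1. At 14 days Hk2 spanned 114 to 179 CPM in KO libraries and 130.3 to 188 CPM in WT libraries, with a log2 fold change of -0.03 ± 0.16.

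No gene of either table passed an adjusted p of 0.05 for genotype by edgeR's quasi-likelihood test (0.00% of 13031 genes at 2 days and 0.00% of 13991 at 14 days), and so none of the 7 tested here did. DESeq2 called 11 genes at 2 days and 1 at 14 days, and limma voom called 0 at both; none of those calls was one of the 7. Before adjustment, 4 of the 7 genes (Slc2a2, Slc2a5, Khk and Hkdc1) were higher in KO at 2 days at a p under 0.05, against 2.72% of all genes tested, and 0 were lower, against 2.19% (4.91% in either direction). That count was 1 without KO library 1, namely Hkdc1, and 3 without WT library 1. Slc2a5 and Hkdc1 were 2 of 7 with all KO libraries above all WT libraries at 2 days, against 2.03% of all genes; 0 of 7 lay below, against 1.94%. At 14 days 0 of the 7 had an unadjusted p under 0.05, against 3.99% of all genes (2.44% higher and 1.55% lower), and 0 of the 7 were free of overlap, against 0.272% of genes with KO higher and 0.257% with KO lower. The first of these counts was 1 without KO library 1 (Slc2a5), KO library 5 (Hkdc1), WT library 1 (Hkdc1) or WT library 2 (Slc2a5), and 3 without the filter on low counts (Slc2a5, Slc5a1 and Hkdc1, all lower). The 3.99% is for filtered genes with all libraries. It is not the share that belongs beside these changed counts, and nothing is read from them. All 8 genes passed the filter on low counts at both times.

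**Figure D2:**
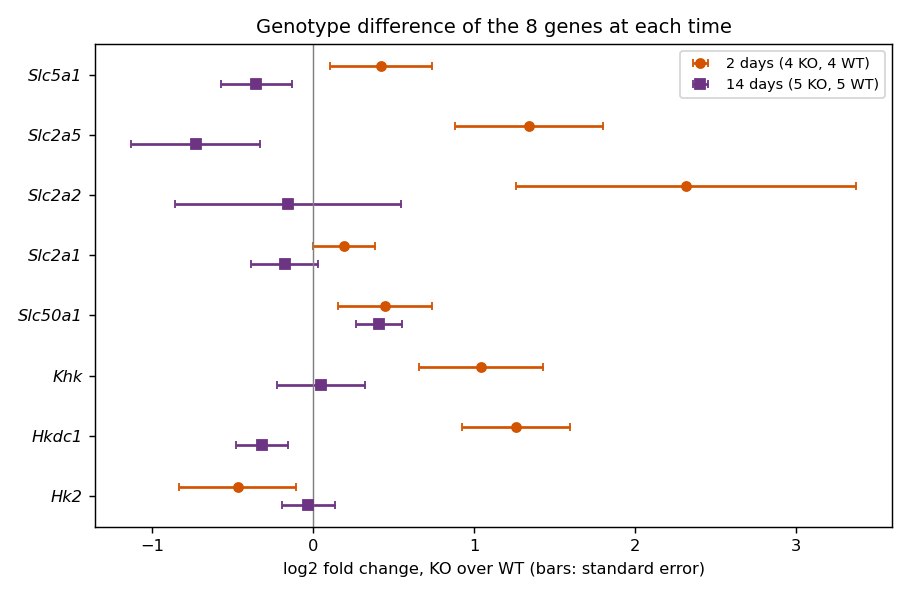
log2 fold change of KO over WT for each gene (bars, SE), at 2 days (circles) and 14 days (squares). At 2 days 7 of the 8 values lie above 0, with Hk2 at -0.47, and at 14 days 6 of the 8 lie below 0, with Slc50a1 at 0.41 and Khk at 0.05.

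Whether the genotype difference itself differed between the times was tested in a single fit of all 18 libraries. Hkdc1 had the smallest p of the 7 genes: its log2 fold change at 14 days minus that at 2 days was -1.60 ± 0.36, rank 6 of 15458 genes by p (0.00022 before adjustment). The edgeR adjusted p was 0.496, the DESeq2 adjusted p 0.0464, and without the filter on low counts the edgeR adjusted p was 0.00142. For Slc2a5 the difference was -2.08 ± 0.64, with an edgeR adjusted p of 0.762 (0.00373 before adjustment), 0.282 by DESeq2 and 0.032 without the filter. No gene was called by edgeR with the filter (0.00%) or by limma voom, 11 were called by DESeq2 and 98 without the filter, while 5.96% of genes had an unadjusted p under 0.05.

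The other genes showed smaller contrasts between times relative to their error. The difference was -1.01 ± 0.49 for Khk, -2.48 ± 1.33 for Slc2a2, -0.79 ± 0.40 for Slc5a1, -0.39 ± 0.29 for Slc2a1 and 0.42 ± 0.40 for Hk2, with edgeR adjusted p between 0.815 and 0.895. For Slc50a1 it was -0.04 ± 0.23, given without a test. Each time is a table of its own, so time, sequencing run and cohort cannot be told apart.

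The 14 day column names hold a letter, B or J, whose meaning the sources used here do not give. The lower Slc2a5 and Hkdc1 in KO at that time were seen among the libraries with letter J. There, 3 KO libraries lay below all 3 WT libraries for both genes. The share of all genes with that order among the letter J libraries was not counted. The shares given above for all 14 day libraries do not apply to it, so nothing is read from the order. For letter J Slc2a5 averaged 6.40 CPM in KO and 15.5 CPM in WT, and Hkdc1 46.9 CPM in KO and 65.6 CPM in WT. Among the letter B libraries, 2 per genotype, Slc2a5 averaged 12.4 CPM in KO and 13.5 CPM in WT, and Hkdc1 55.0 CPM in KO and 57.7 CPM in WT. Khk went opposite ways, with 105 CPM in KO and 70.9 CPM in WT for letter B, and 79.2 CPM in KO and 97.0 CPM in WT for letter J. Slc50a1, whose order within each letter is fixed by how it was chosen, stood at 88.5 CPM in KO and 65.2 CPM in WT for B, and 80.4 CPM in KO and 61.3 CPM in WT for J. Whether the genotype difference differs between the letters was not tested.

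**Figure D3:**
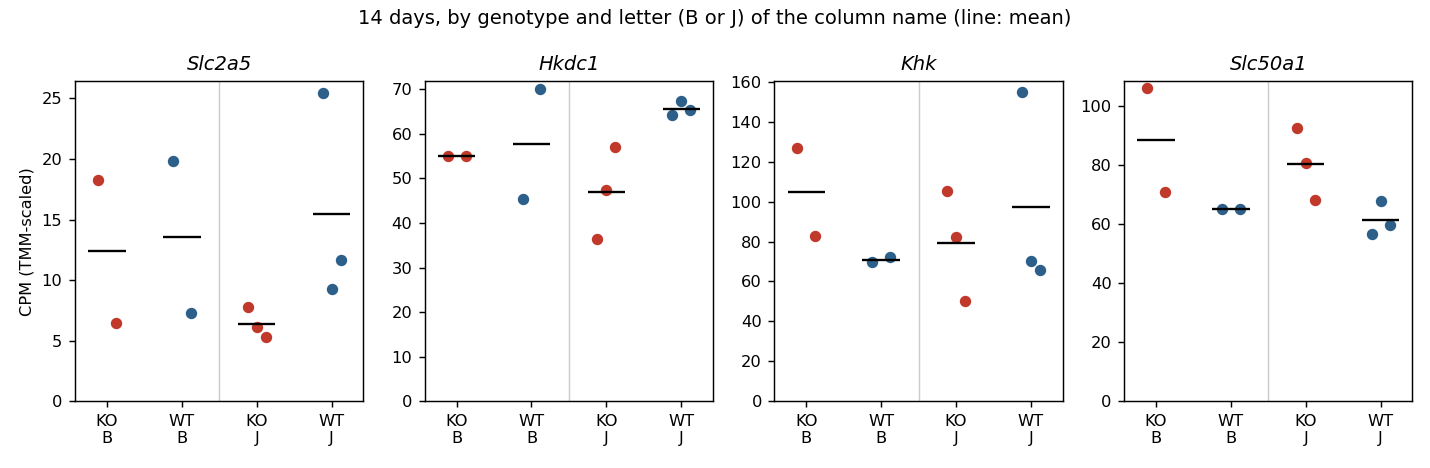
CPM at 14 days of Slc2a5, Hkdc1, Khk and Slc50a1, split by the letter B or J of the column name, KO left of WT, with a line at the mean. For letter J the 3 KO points of Slc2a5 and Hkdc1 lie below the 3 WT points, and the share of all genes with that order was not counted. The order of Slc50a1 is fixed by how it was chosen.

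Markers of absorptive enterocytes went in the direction of most of these genes at both times, but not in that of Slc50a1 at 14 days. At 2 days 23 of 24 enterocyte markers were higher in KO (median log2 fold change 1.22; 11 at an unadjusted p under 0.05, none called by edgeR), where 51.0% of all genes were higher and 2.72% were so at that p. At 14 days 6 of 24 were higher (median -0.36), against 51.0% of all genes. Their summed level was 5811, 2239, 2007 and 2887 CPM in KO libraries at 2 days, against 2239, 2321, 1867 and 1996 CPM in WT libraries. KO library 1 held the most, and is also the highest library for Slc5a1, Slc2a5, Slc2a2, Khk and Hkdc1. KO libraries 2 and 3 had marker sums inside the WT range. There Slc2a5 (6.18 and 5.53 CPM) and Hkdc1 (21.0 and 27.1 CPM) were above the WT maxima of 4.83 and 18.5 CPM. This follows from the lack of overlap given above and adds nothing to it. Khk was at 33.3 and 24.1 CPM, against a WT maximum of 26.6 CPM. Slc2a2 (0.584 and 1.71 CPM) was inside the WT range. Abundant markers weigh most in such a sum, and the part of the marker level in these values was not tested.

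At 14 days the enterocyte marker sum spanned 3165 to 15824 CPM in KO libraries and 2280 to 13972 CPM in WT libraries. Its mean was higher in KO, at 7580 CPM, than in WT, at 6384 CPM, opposite in direction to the median of the markers. The highest of each genotype, KO library 1 and WT library 3, were also the highest of their genotype for Slc2a5 and Khk. Markers of the proximal small intestine, where fructose uptake is greatest, were higher in KO for 7 of 8 at 2 days and for 1 of 8 at 14 days. Of these, Cyp3a11, Fabp1 and Apoa4 are also among the enterocyte markers, so the lists are not independent. Markers of the distal intestine were higher in KO for 4 of 7 at 2 days and 6 of 7 at 14 days. Goblet cell markers were higher in KO for 8 of 8 at both times (medians 0.55 and 0.57), the direction that Slc50a1 has, and enteroendocrine markers for 4 of 8 at 2 days and 9 of 9 at 14 days. The goblet marker sum spanned 487 to 1345 CPM in KO and 506 to 681 CPM in WT at 2 days, and 2211 to 14274 CPM in KO and 1552 to 6530 CPM in WT at 14 days. KO library 1 at 14 days held the most and is also the highest library for Slc50a1. WT library 3 at 14 days held the most goblet marker counts of its genotype, 6530 CPM. It is the lowest 14 day library for Slc50a1, at 56.6 CPM. Summed stem cell markers at 2 days spanned 4893 to 5662 CPM in KO and 5700 to 6348 CPM in WT, without overlap, and at 14 days 2405 to 3383 CPM in KO and 2676 to 3632 CPM in WT. Olfm4 alone averaged 2432 CPM in KO and 2953 CPM in WT at 2 days. Stem cell markers were higher in KO for 3 of 13 at 2 days (median -0.14) and 6 of 13 at 14 days (median -0.05). None had an unadjusted p under 0.05 by edgeR. Haematopoietic cell markers summed to 398 to 753 CPM in KO and 322 to 1002 CPM in WT at 2 days, and to 844 to 1460 CPM in KO and 412 to 1508 CPM in WT at 14 days, while the haemoglobin genes were at 0 in every 2 day library. In these bulk samples a change in the number of cells of a type and a change in RNA per cell cannot be told apart, and the part of the marker differences in the results was not tested.

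**Figure D4:**
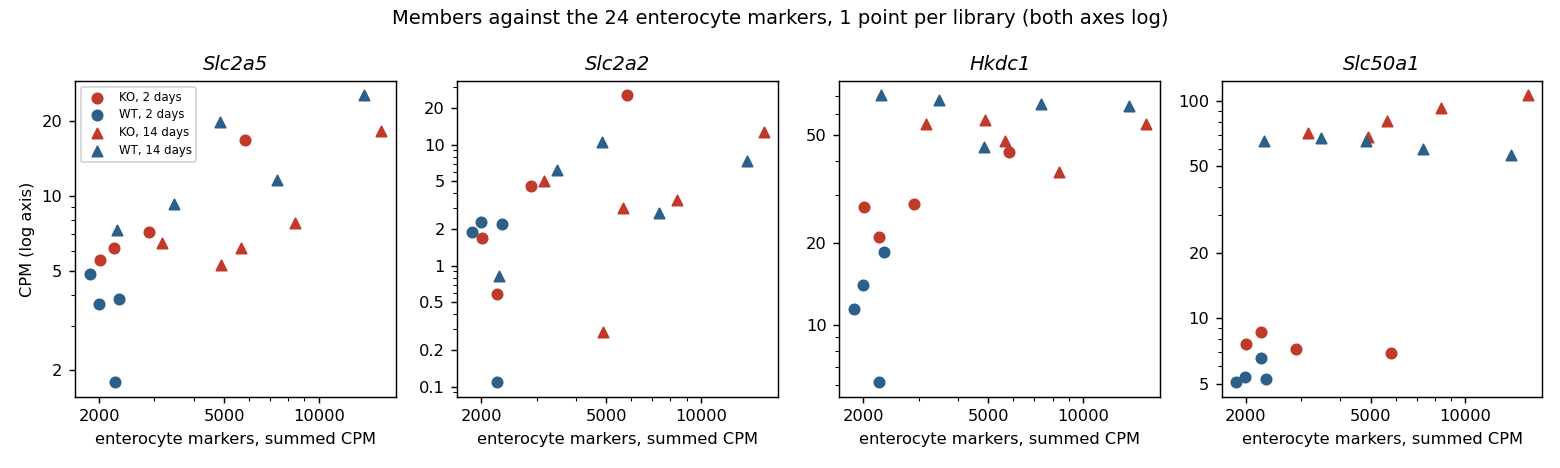
CPM of Slc2a5, Slc2a2, Hkdc1 and Slc50a1 against the summed CPM of 24 enterocyte markers, both axes log, 1 point per library (KO red, WT blue; circles 2 days, triangles 14 days). The 2 day KO library with the highest sum, 5811 CPM, is the highest 2 day library for Slc2a5, Slc2a2 and Hkdc1 but the lowest 2 day KO library for Slc50a1, at 6.89 CPM. The 14 day KO library with the highest sum, 15824 CPM, is the highest of all for Slc50a1, at 106 CPM. The 14 day WT library with the highest sum, 13972 CPM, is the lowest 14 day library for Slc50a1, at 56.6 CPM.

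The wider pathway was read from 9 lists holding 95 other genes, of which 80 were tested at 2 days and 85 at 14 days. None was called by edgeR at either time. At 2 days 56 of the 80 were higher in KO, with a median log2 fold change of 0.24 against 0.01 over all genes tested, and 5 were higher and 0 lower at an unadjusted p under 0.05; over all genes 51.0% were higher, and 2.72% were higher and 2.19% lower at that p. At 14 days 26 of 85 were higher, with a median of -0.07 against 0.01 over all genes, and 0 were higher and 6 lower at an unadjusted p under 0.05; over all genes 51.0% were higher, and 2.44% were higher and 1.55% lower at that p. The median at 2 days was 0.14 without KO library 1 and 0.13 without WT library 1, and that at 14 days was -0.15 without KO library 2 and -0.12 without KO library 5. At 2 days the 5 became 1 without KO library 1 and 3 without KO library 4 or WT library 4. At 14 days the 6 became 1 without KO library 3, 2 without KO library 4, and 3 without WT library 2 or 5.

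The brush-border hydrolases, which release the monosaccharides that these transporters carry, had the list median farthest from 0 at both times. Sucrase-isomaltase, Sis, was at 511, 45.7, 49.5 and 131 CPM in KO libraries at 2 days, against 79.9, 49.1, 46.8 and 48.8 CPM in WT libraries. KO libraries 1 and 4 were above all WT libraries, and the other pair was not. The Sis log2 fold change was 1.71 ± 0.64, that of lactase, Lct, was 1.93 ± 0.91, that of trehalase, Treh, was 1.07 ± 0.82, and that of maltase-glucoamylase, Mgam, was -0.14 ± 0.22, all with edgeR adjusted p of 0.866 to 0.930. At 14 days all 4 were lower in KO, Lct by -1.45 ± 0.56, Treh by -1.02 ± 0.46, Mgam by -0.13 ± 0.18 and Sis by -0.04 ± 0.42, with edgeR adjusted p of 0.957 to 0.996. The list median at 2 days was 1.39 with all libraries and 0.21 without KO library 1.

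Among the 22 other sugar transporters, 14 were tested at each time, and 9 were higher in KO at 2 days and 6 at 14 days. Slc5a4a, a member of the SGLT family, had the largest value at 2 days, 3.42 ± 1.20, but few counts: 158, 22, 2 and 60 in KO libraries against 1, 14, 5 and 2 in WT libraries. Slc5a3, the sodium-coupled inositol carrier, averaged 57.4 ± 22.4 CPM in KO and 35.2 ± 10.1 CPM in WT at 2 days (SD, n = 4 each), and 43.1 ± 12.3 CPM in KO and 55.1 ± 14.2 CPM in WT at 14 days (SD, n = 5 each).

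Of the fructose and polyol enzymes, 8 of 10 tested were higher in KO at 2 days (median 0.23) and 3 of 12 at 14 days (median -0.12), none at an unadjusted p under 0.05. Mpi, which interconverts mannose 6-phosphate and fructose 6-phosphate, averaged 29.2 ± 7.61 CPM in KO and 22.1 ± 5.41 CPM in WT at 2 days (SD, n = 4 each). The carbohydrate response factors, which include ChREBP and its targets, had medians of -0.09 at 2 days and -0.14 at 14 days. Of the galactose pathway genes, 5 of 5 were higher in KO at 2 days (median 0.34) and 3 of 5 at 14 days (median 0.02).

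Glycolysis and lactate export genes were higher in KO for 17 of 23 at 2 days (median 0.23) and 8 of 24 at 14 days (median -0.07). Aldolase A, Aldoa, had 0.64 ± 0.28 at 2 days. At 14 days aldolase C, Aldoc, had -1.0 ± 0.36, the fructose 2,6-bisphosphate enzyme gene Pfkfb4 had -0.45 ± 0.19, and the lactate exporter gene Slc16a3 had -1.13 ± 0.52. The sodium pump, which maintains the gradient that SGLT1 uses, had medians of -0.02 and 0.04. The other hexokinases had 2 genes tested at 2 days and 4 at 14 days, with medians of 0.58 and 0.01. Of 10 enterocyte transcription factors, Maf had 0.96 ± 0.42 at 2 days and -0.51 ± 0.23 at 14 days, and the list medians were 0.22 and -0.07. Each of these genes had an edgeR adjusted p of 0.866 at 2 days or 0.957 at 14 days.

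**Figure D5:**
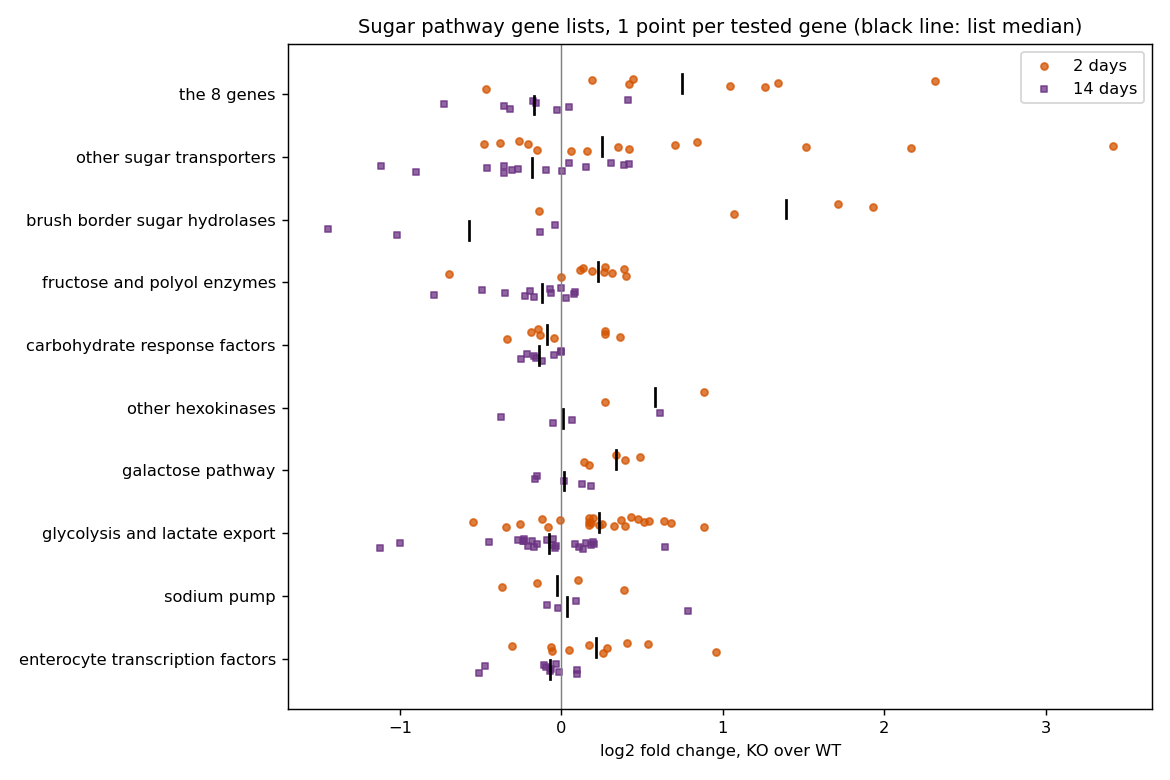
log2 fold change of KO over WT (x axis) for each tested gene of the 8 genes and of 9 pathway lists, at 2 days (circles) and 14 days (squares), with a black line at the list median. The hydrolase list has medians of 1.39 at 2 days and -0.57 at 14 days, and the sodium pump list lies near 0 at both times.

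Between 14 and 2 days in wild type, 6 of the 8 differed, against 53.4% of all genes by edgeR's quasi-likelihood test. This contrast was not used to pick Slc50a1, but all 8 genes were chosen with earlier results of these data known. Of the 6, 4 were higher at 14 days, against 27.7% of all genes, and 2 were lower, against 25.7%. In edgeR's test Slc50a1 was higher by 3.07 ± 0.18 on the log2 scale (adjusted p 5.07e-11). With all 18 libraries scaled together it stood at 55.3 ± 3.64 CPM at 14 days (SD, n = 5), against 6.58 ± 0.817 CPM at 2 days (SD, n = 4). The jointly scaled WT libraries spanned 50.5 to 59.3 CPM at 14 days and 6.03 to 7.79 CPM at 2 days, so the times lay far apart. Each time is a table of its own, so differences between times cannot be told apart from those of sequencing run and cohort.

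The fructose genes and Hkdc1 were also higher at 14 days. Khk was higher by 1.95 ± 0.37 (adjusted p 1.40e-04), Hkdc1 by 1.90 ± 0.27 (adjusted p 4.76e-06) and Slc2a5 by 1.63 ± 0.47 (adjusted p 0.00582) in edgeR's test. Slc2a1 and Hk2, named above as genes that many dividing cells rely on, were lower. In edgeR's test Slc2a1 was lower by 1.03 ± 0.20 (adjusted p 2.46e-04) and Hk2 by 1.23 ± 0.29 (adjusted p 0.00108). The Hk2 value was -0.58 without WT library 1 at 2 days. Of 24 glycolysis and lactate export genes tested, edgeR called 12 higher at 14 days and 3 lower. Over all genes 27.7% were called higher and 25.7% lower. Slc2a2 (1.33 ± 0.97, adjusted p 0.254) and Slc5a1 (-0.20 ± 0.29, adjusted p 0.573) did not pass the threshold of edgeR's test. Upper-quartile scaling moved the median of all genes by 0.13 and kept the direction of each of the 6. Stem cell markers were lower and enterocyte markers higher in sum at 14 days, as given above for each table scaled alone, and their part in these differences was not tested.

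The order of levels, per kb of exon, differed between the times in wild type. At 14 days it ran Slc5a1 58.2 ± 21.6, Khk 48.2 ± 21.3, Slc50a1 42.9 ± 3.10, Hk2 25.6 ± 4.34, Hkdc1 12.2 ± 1.92, Slc2a1 11.6 ± 2.76, Slc2a5 4.32 ± 2.25 and Slc2a2 0.966 ± 0.670 CPM per kb (SD, n = 5). Neighbours in this order that lay closer than the larger of their SDs were Slc5a1, Khk and Slc50a1, and Hkdc1 and Slc2a1. At 2 days it ran Slc5a1 49.7 ± 11.8, Hk2 44.7 ± 32.6, Slc2a1 17.5 ± 3.84, Khk 9.28 ± 4.82, Slc50a1 3.79 ± 0.474, Hkdc1 2.43 ± 1.0, Slc2a5 1.04 ± 0.376 and Slc2a2 0.285 ± 0.180 CPM per kb (SD, n = 4). There Hk2, with its wide spread, lay closer than its SD to both Slc5a1 and Slc2a1, and Slc50a1 stood lower in the order than at 14 days.

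In KO at 14 days Slc50a1 had the highest mean of the 8 genes, at 57.0 ± 10.7 CPM per kb, beside Khk at 49.8 ± 16.0 and Slc5a1 at 45.5 ± 6.29 CPM per kb (SD, n = 5), each neighbour closer than the larger SD. At 2 days KO means were 66.5 ± 36.0 CPM per kb for Slc5a1 and 5.17 ± 0.510 CPM per kb for Slc50a1 (SD, n = 4). The coefficient of variation among the libraries of a group was 63.2 to 145% for Slc2a2 over the 4 groups, and 7.23 to 18.8% for Slc50a1. Choosing Slc50a1 for groups without overlap favours a small spread, so nothing is read from its range.

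The genes whose library-to-library pattern was most like that of Slc50a1 were Samd9l, Tmem41a, Lage3, Cystm1 and Sdhaf3, with Pearson r of 0.78 to 0.83 over 18 libraries after the mean of each genotype and time was removed. For Slc2a5 they were Mgst3, a microsomal glutathione S-transferase, Slc7a9, a brush-border amino acid transporter subunit, Hnf4g, an enterocyte transcription factor, Aaed1 and Ms4a12, with r of 0.88 to 0.89. These are the highest of 8831 genes compared, of which 1% exceeded 0.65 for Slc50a1 and 0.74 for Slc2a5, and the libraries share depth and cell composition, so no p is given. Slc50a1 and Slc2a5 themselves had an r of -0.02, whereas Slc2a2 and Slc2a5 had 0.82 and Slc2a5 and Khk 0.75.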

How the data were processed

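The authors deposited whole-number read counts per Ensembl gene, 1 table per time, not normalized. STAR 2.4.2a, bcl2fastq 2.20.0.422 and the GRCm38 build are listed in the submitters' processing notes. Per the labels' protocols, poly(A) RNA was amplified with a SmartSeq kit; no molecular identifiers are named, so counts include amplified copies. How reads were counted, on which strand and with which annotation is not given in the sources used here. Columns beginning WT or, at 14 days, Dko were read as wild type and knock-out. The other 2 day columns begin with Dmin, read as Dlg1 minus, and every 2 day comparison rests on this reading. Libraries were numbered by their place in the table, which pairs nothing.

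Symbols came from GENCODE M21 (42548 of 43432 identifiers; the rest took up to 0.185% of any library). Each time was fitted with edgeR 4.0.16 in R 4.3.3: filterByExpr with a minimum count of 10, TMM scaling, the quasi-likelihood F-test and Benjamini-Hochberg adjustment, called at 0.05. The difference between times and the wild-type contrast of times used 1 fit of all 18 libraries. The SE is the absolute log2 fold change over the square root of F. Exact permutation tests compared mean log2(CPM + 0.5). DESeq2 1.42.0, limma 3.58.1, other scalings and filters, and leaving out each library were alternatives. Scripts were tested on simulated data. Each library was counted as 1 sample; no pair agreed within counting error, which finds a library deposited again but not repeat amplifications of 1 sample.

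The genes and lists were chosen with earlier results of these data known. Named are the 8 genes, up to 4 genes of smallest p per list and time from the pathway lists, and the 5 genes most like Slc50a1 and Slc2a5 with a mean log2 CPM of at least 3; the text gives some of these.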

Additional observations from a re-analysis of the deposited data

Results flagged for a closer look

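Each of the 8 genes was looked at in each of the 4 groups, 32 sets of libraries, for a single library far from the rest. Dixon's ratio, the gap to the nearest library over the range, was taken on CPM without a log. The limits were 0.829 for 4 libraries and 0.71 for 5. Of these sets, 6 stood out. About 1 in 20 would do so if values were independent and normally spread. The genes share libraries and CPM need not be normally spread, so the 6 are not compared with that rate. KO library 1 at 2 days was high for Slc2a2, at 25.6 CPM, and for Slc2a5, at 16.9 CPM. KO library 1 at 14 days was high for Slc2a5, at 18.3 CPM. WT library 3 at 14 days was high for Khk, at 155 CPM, and WT library 1 at 14 days was low for Hkdc1, at 45.3 CPM. WT library 1 at 2 days was high for Hk2, at 559 CPM; that library also had the highest total, 40.5 M, and the highest mitochondrial share of counts, 49.1%. Both libraries numbered 1 in KO had the highest enterocyte marker sum of their group, 5811 CPM at 2 days and 15824 CPM at 14 days, and WT library 3 at 14 days had that of its group, 13972 CPM. The part of these values in the results was not tested.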

How the results depend on the processing

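No paired analysis was possible because the columns carry no replicate numbers from the labels. Genes called for genotype at 2 days were 0 with edgeR, 7 without the filter on low counts, 11 with DESeq2 and 2 in a joint fit of all libraries (0 to 1 without 1 library). At 14 days they were 0, 2 without the filter, 1 with DESeq2 and 1 with letter B libraries alone (0 to 0 without 1 library). For the difference between times they were 0, 98 without the filter and 11 with DESeq2 (0 to 1 without 1 library). For time in wild type they were 8251, and 7660 to 8429 without 1 library.

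Letter B libraries alone, chosen after seeing the data like letter J alone and the omission of 2 libraries, turned Slc2a2 (0.62) and Hk2 (0.057) at 14 days; letter J turned Khk (-0.29). Without WT library 1 at 2 days and KO library 5 at 14 days, the Hk2 difference between times was -0.28. Leaving out 1 library gave -0.0088 to 0.61 for Slc5a1 and -0.65 to 0.18 for Hk2 at 2 days; -0.11 to 0.37 for Khk, -0.12 to 0.054 for Hk2 and -0.88 to 0.22 for Slc2a2 at 14 days; and -0.22 to 0.60 for the Hk2 difference between times. Without the filter Slc2a2 passed the threshold for time in wild type (1.36, adjusted p 0.049 by edgeR). The causes were not tested. Slc2a2 was not tested at 2 days with a minimum count of 50. Low counts limit Slc2a2, with 2 to 525 counts per library, and Slc50a1 at 2 days, with 88 to 309.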
